A study of Homo sapiens with 12 samples.

Results

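The comparison described here asks what erlotinib, an inhibitor of the EGFR kinase, altered in the RNA of lung cancer cells when it was given together with quinacrine, an acridine compound long used against malaria. It sets 3 arrays of cells given 1 µM erlotinib together with 3 µM quinacrine for 6, 12 or 24 h against 3 arrays of cells given 3 µM quinacrine alone for the same times, which makes 6 of the 12 arrays of the study. All cells were NCI-H1975, a human lung adenocarcinoma line whose label gives a mutant EGFR with L858R and T790M. The other arrays comprised the combination at 48 h, erlotinib alone at 6, 12, 24 and 48 h, and 1 array of untreated cells with no stated time. The 4 arrays of erlotinib alone at 6, 12 and 24 h and of untreated cells gave the effect of erlotinib without quinacrine, and they are not among the 6 arrays above. Since every condition was measured on 1 array, the comparison pairs arrays by time and has no replicates, and the labels do not say whether they came from separate cultures. A p-value here therefore measures only how steady a difference was over the 3 times. The same cell line was used throughout, so no statement extends to other lung cancer cells.

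EGFR is a receptor kinase that passes growth signals to the RAS-ERK and PI3K-AKT pathways, and ERK switches on a set of immediate early and feedback genes. L858R makes the kinase constantly active and sensitive to erlotinib, whereas T790M in the same protein is the classical change that lowers this sensitivity. Quinacrine binds DNA and is known to trap the histone chaperone FACT on chromatin and to reduce NF-kappaB activity. Erlotinib is also cleared by cytochrome P450 enzymes, CYP1A1 among them. The CYP1A1 gene is switched on by the aryl hydrocarbon receptor, a ligand-activated transcription factor that pairs with ARNT on short GCGTG motifs.

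Levels are log2 values after each array was centred on its median over the tested genes, and a difference is combination minus quinacrine at the same time. A gene was tested when its deposited level averaged at least 5 over the 12 arrays, and 5820 of 22395 named genes passed (26.0%). Among genes close to that limit, VTI1A averaged 5.0 with a difference of -0.01 and GEM averaged 4.9992, just outside, with a difference of -0.36. The combination 6 h array stood apart from the rest. Its tested genes had a median of 6.18 before centring, against 6.39 to 6.56 on the other 5 arrays of the comparison, its interquartile range over all rows was 2.04, and 7470 rows reached a level of 5. Of the tested genes, 60.7% had their largest absolute difference at 6 h. Of 16 epithelial and lung markers 9 passed the filter, and these 9 averaged 6.12 to 10.3. The rest of that list was below the filter or not on the array. Of 16 markers of other cell types only CD68, HLA-DRA and CD74 passed the filter, with differences of 0.07, -0.18 and 0.10.

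No gene passed the threshold of a limma adjusted p of 0.05, either higher or lower with the combination (0.0% of 5820 in each direction; smallest adjusted p = 0.983). At an unadjusted p under 0.05 there were 189 genes (3.25%), 87 of them higher and 102 lower, where 291 would be expected by chance. The 95% interval of the difference had a median half-width of 0.26. It lay within 1 log2 unit of 0 for 98.4% of the genes and within 1.5-fold for 89.0%. A mean difference of 2-fold or more was seen in 4 genes and one of 1.5-fold or more in 30. These intervals bound the size of an effect that was steady over the 3 times; they do not show that erlotinib had none.

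The 3 time points differed in spread. The median absolute difference was 0.20 at 6 h, 0.11 at 12 h and 0.08 at 24 h, and the SD over genes was 0.39, 0.20 and 0.15. At 6 h, 25 genes were at least 2-fold higher (0.43%) and 133 at least 2-fold lower (2.29%). At 12 h these counts were 3 (0.0515%) and 2 (0.0344%), and at 24 h 3 (0.0515%) and 0 (0.0%). The 3 genes at least 2-fold higher at 24 h were CYP1A1, CYP1B1 and SNORA38B. The wide spread at 6 h fell on the array that stood apart, and the part of that array in it was not tested. For erlotinib alone minus the untreated array the order was the other way, with median absolute differences of 0.125, 0.16 and 0.175 at 6, 12 and 24 h. The erlotinib 12 h array had the narrowest interquartile range (2.26) and the fewest rows at a level of 5 (8193) after the combination 6 h array. At 12 h of erlotinib alone 9 genes were at least 2-fold higher and 37 lower. The part of that array in the effects of erlotinib alone was not tested.

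**Figure D1:**
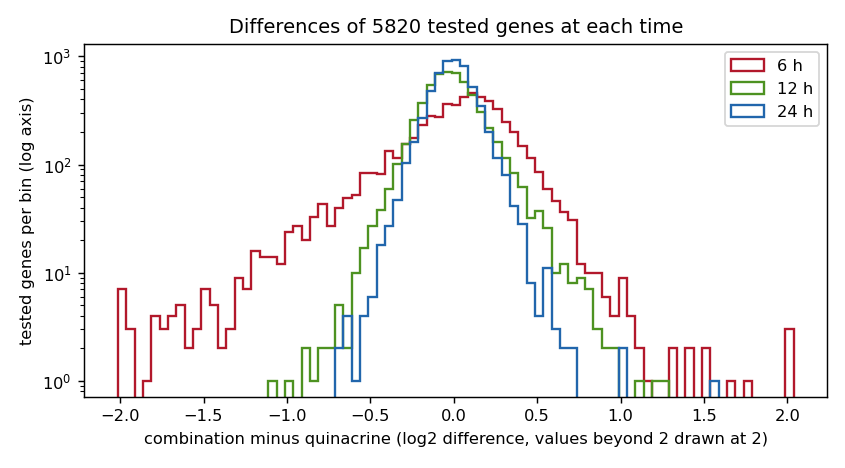
Histogram of the combination minus quinacrine log2 differences of 5820 tested genes, a line per time, with the number of genes on a log axis and values beyond 2 drawn at 2. The differences are widest at 6 h (SD 0.39) and narrowest at 24 h (SD 0.15).

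The differences at the 3 times had little in common gene by gene. Across the 5820 genes, which are not independent of each other, Pearson's r was -0.03 between 6 and 12 h, -0.01 between 6 and 24 h, and 0.03 between 12 and 24 h. The mean difference had an r of 0.06 with the mean effect of erlotinib alone, measured on other arrays. At all 3 times, 633 genes were higher with the combination (10.9%) and 663 were lower (11.4%). A difference of at least 1.2-fold at every time was seen in 8 genes upward (0.137%) and 3 downward (0.0515%); at 12 and 24 h, without the 6 h pair, these counts were 34 and 24. The 3 combination arrays lay above all 3 quinacrine arrays for 102 genes (1.75%) and below them for 142 (2.44%).

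CYP1B1 and CYP1A1 encode cytochrome P450 enzymes that oxidise polycyclic compounds and are the classical targets of the aryl hydrocarbon receptor. They ranked 1 and 2 by p among all tested genes. CYP1A1 averaged 5.12 over the 12 arrays, close to the limit of 5, and would have averaged below it without its combination arrays. It was thus tested only through the group where it is high, and its rank, interval and p are descriptions only. CYP1B1 stood at 6.97, 6.54 and 6.70 in the combination arrays at 6, 12 and 24 h, against 6.29, 5.92 and 5.67 in the quinacrine arrays. All 3 combination arrays lay above all 3 quinacrine arrays. The mean difference was 0.78 (SE 0.12, 95% interval 0.49 to 1.06), which is 1.71-fold, with an unadjusted p of 0.000532 and a limma adjusted p of 0.983. Leaving out 1 pair gave 0.65 to 0.855, the lowest without the 24 h pair.

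CYP1A1 stood at 6.89, 5.96 and 5.84 in the combination arrays, against 5.86, 5.31 and 4.26 in the quinacrine arrays. Each combination array was above its time-matched quinacrine array, by 1.03, 0.65 and 1.58, while the groups overlapped because both were higher at 6 h than later. The mean difference was 1.09 (SE 0.18, 95% interval 0.65 to 1.52), or 2.12-fold, with an unadjusted p of 0.000873 and a limma adjusted p of 0.983. Leaving out 1 pair gave 0.84 to 1.305, again lowest without the 24 h pair. At 48 h, where no quinacrine array was used, the combination array stood at 4.49 for CYP1A1 and 6.23 for CYP1B1.

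The arrays without quinacrine gave differences of the same sign for both genes. CYP1A1 stood at 4.63, 4.335 and 5.43 with erlotinib alone at 6, 12 and 24 h, against 3.605 in untreated cells, a mean difference of 1.19. CYP1B1 stood at 7.31, 6.935 and 7.24 with erlotinib alone, against 6.625 in untreated cells, a mean difference of 0.54. At 48 h of erlotinib alone CYP1B1 was back near the untreated level, with a difference of -0.045. Quinacrine alone set the pair apart: its arrays averaged 1.54 above the untreated array for CYP1A1 and 0.665 below it for CYP1B1. Whether the effect of erlotinib with quinacrine differed from its effect alone was tested in limma over 10 arrays, and the difference of effects was -0.11 (SE 0.73) for CYP1A1 and 0.24 (SE 0.31) for CYP1B1, with an adjusted p of 0.999 for each.

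**Figure D2:**
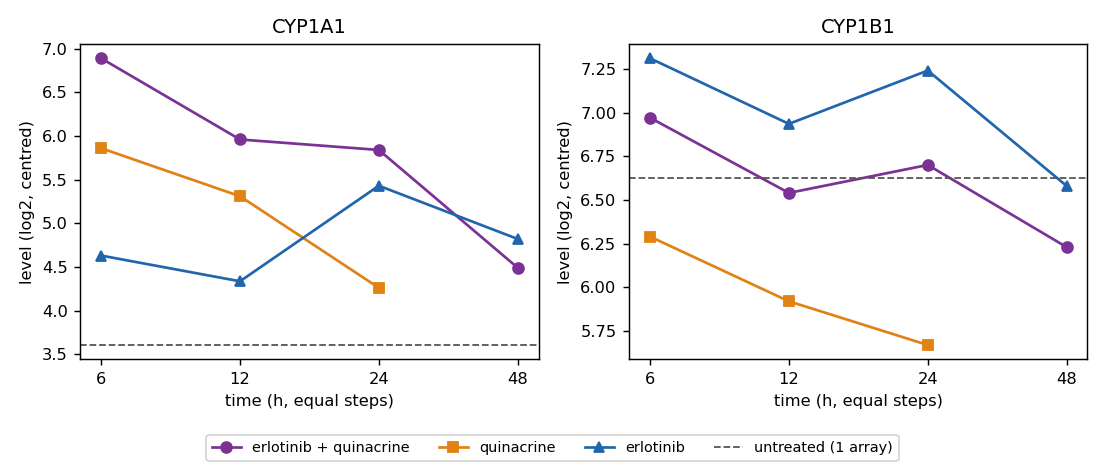
Centred log2 level of CYP1A1 and CYP1B1 on every array by time, for the combination, quinacrine, erlotinib alone and the untreated array, 1 array per point and times drawn at equal steps. At 6, 12 and 24 h the combination lies above quinacrine in both panels, and CYP1B1 is higher with erlotinib alone than with the combination at each of these times.

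The remaining aryl hydrocarbon receptor genes lay near 0. Of 18 genes listed for this receptor 11 were tested and none passed. At all 3 times 2 were higher and 0 were lower, against 10.9% and 11.4% of all tested genes. The 2 were CYP1B1 and CYP1A1, and CYP1A1 was tested only through its combination arrays. The median difference was 0.03, against 0.01 over all tested genes. Apart from CYP1A1 and CYP1B1, the 9 tested members lay between -0.12 for ARNT, the partner of the receptor, and 0.09 for LPCAT2. AHR, the receptor itself, differed by 0.03, its feedback repressor TIPARP by 0.06 and the quinone reductase gene NQO1 by 0.03. CYP1A2, ALDH3A1, ALDH1A3 and XDH averaged 1.67 to 2.53 and were not tested.

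The promoter windows of CYP1A1 and TIPARP are printed to show the core motif. CYP1A1 was higher with the combination at each time but did not pass. TIPARP, which is induced by the same receptor, was near 0 here. The windows run from 250 bases before to 50 after the start of the gene, from RefSeq on GRCh38.p14, and capitals mark GCGTG or its reverse complement CACGC. The CYP1A1 window is chr15:74725479-74725778 on the minus strand and holds 1 motif, which starts 57 bases before the gene. The TIPARP window is chr3:156674340-156674639 on the plus strand and holds 2 motifs, at 208 and 142 bases before the gene.
CYP1A1: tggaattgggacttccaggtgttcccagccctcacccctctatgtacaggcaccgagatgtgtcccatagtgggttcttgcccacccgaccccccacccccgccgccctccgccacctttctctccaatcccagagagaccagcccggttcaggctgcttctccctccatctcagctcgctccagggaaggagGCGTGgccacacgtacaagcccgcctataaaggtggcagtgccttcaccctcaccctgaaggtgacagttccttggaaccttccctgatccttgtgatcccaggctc
TIPARP: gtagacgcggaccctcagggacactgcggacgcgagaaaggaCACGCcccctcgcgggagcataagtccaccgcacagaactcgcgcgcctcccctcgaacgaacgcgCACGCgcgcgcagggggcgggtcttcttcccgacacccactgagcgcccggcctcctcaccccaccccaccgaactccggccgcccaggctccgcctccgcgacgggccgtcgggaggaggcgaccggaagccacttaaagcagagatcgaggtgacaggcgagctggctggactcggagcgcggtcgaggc
The motif is common: 36.5% of 35116 such windows hold it, and it was found in 11 of the 15 listed genes that have a window. A match describes these letters only.

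Outside this pair, the genes with the most even differences were of mixed function. KLHL18, an adaptor of a ubiquitin ligase, stood at 6.12, 6.12 and 6.16 with the combination and at 5.86, 5.82 and 5.88 with quinacrine. The groups did not overlap, and the difference was 0.28 (SE 0.09, 95% interval 0.06 to 0.50; limma adjusted p = 0.983). NDUFAF8, an assembly factor of respiratory complex I, stood at 5.97, 5.26 and 5.32 with the combination and at 5.60, 4.62 and 4.95 with quinacrine, a mean difference of 0.46. CNNM4, a magnesium transporter gene, stood at 5.12, 5.28 and 5.41 with the combination and at 4.67, 4.99 and 5.03 with quinacrine. Its groups did not overlap and differed by 0.37. FJX1, a YAP target that encodes a secreted protein, differed by 0.32, 0.28 and 0.32, and CRAMP1 by 0.28, 0.26 and 0.30. METTL14, a subunit of the RNA adenosine methyltransferase, differed by 1.5 at 6 h but by 0.29 at 12 h and at 24 h, so its mean of 0.69 rests on the 6 h pair.

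In the other direction, RNF19B, a ubiquitin ligase gene, stood at 4.74, 5.61 and 5.89 with the combination and at 5.80, 6.12 and 6.25 with quinacrine. Each combination array was lower than its pair, by a mean of -0.64 (SE 0.15, 95% interval -1.01 to -0.27). UBA7, the activating enzyme for the interferon-induced modifier ISG15, stood at 4.50, 4.83 and 5.64 with the combination and at 5.13, 5.25 and 5.99 with quinacrine, a mean difference of -0.47. ZNF528, a zinc finger gene, stood at 4.85, 5.07 and 5.09 with the combination and at 5.38, 5.36 and 5.35 with quinacrine, and here the groups did not overlap. CHTOP, which takes part in mRNA export, differed by -0.56, -0.32 and -0.26, and CHML, a Rab escort protein gene, by -0.33, -0.34 and -0.25. PFKFB3, which makes the activator of phosphofructokinase, differed by -0.71, -0.61 and -0.15. WRN, a DNA helicase gene, had a mean of -0.82 that came from -1.79 at 6 h, against -0.25 and -0.42 later. Apart from PFKFB3, which was picked for its small p, these genes were picked for differences of one sign at all 3 times, so the steadiness itself is no finding, and 13 of the 20 picked in this way had their largest difference at 6 h.

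**Figure D3:**
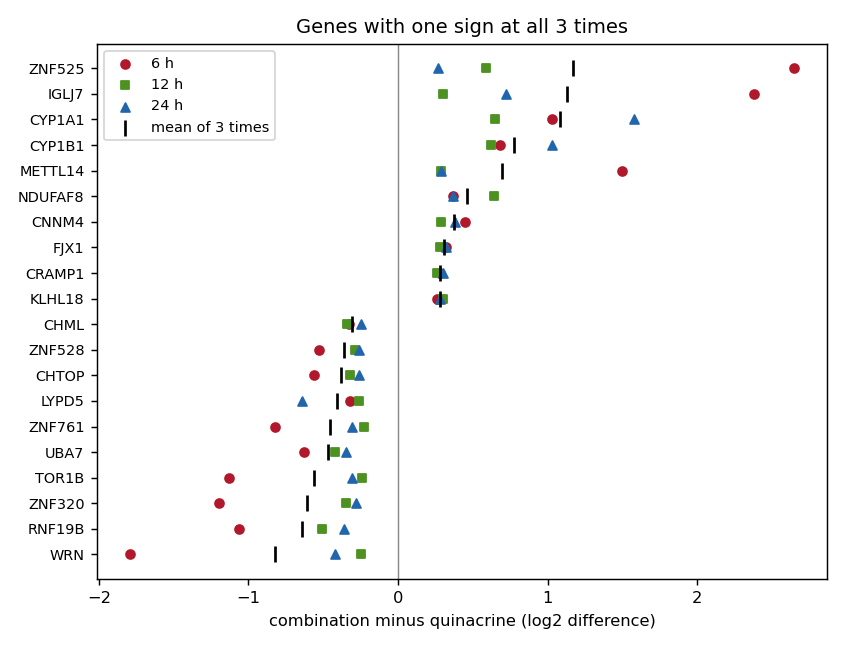
Combination minus quinacrine log2 difference at 6, 12 and 24 h for the 20 genes picked for one sign at all 3 times, with a coloured point per time and a black bar for the mean. CYP1A1 and CYP1B1 keep differences of at least 0.62 at each time, while ZNF525, IGLJ7, METTL14 and WRN are far from 0 mainly at 6 h.

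EGFR itself had nearly the same level in both groups. It stood at 8.05, 8.13 and 8.38 with the combination and at 8.18, 8.13 and 8.36 with quinacrine, and the arrays of both groups overlapped. The mean difference was -0.04 (SE 0.10, 95% interval -0.27 to 0.20). With erlotinib alone EGFR stood at 8.40, 8.335 and 8.22, against 8.635 in untreated cells. All 7 tested EGFR and ERBB receptors and ligands had an interval within 1.5-fold, as had 89.0% of all tested genes, and their median was -0.02. EREG, the ligand epiregulin, stood at 7.23, 6.86 and 6.79 with the combination and at 7.90, 6.67 and 6.76 with quinacrine. The 6 h pair alone was lower with the combination, and the mean difference was -0.15. Without quinacrine, EREG was lower with erlotinib than in untreated cells at all 3 times, by a mean of -0.74. ERRFI1, a feedback inhibitor of EGFR, differed by 0.11 in the combination and by -0.28 with erlotinib alone.

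Genes induced by ERK had no common direction on top of quinacrine. Of 29 listed genes 18 were tested, none passed, and the median was 0.01. At all 3 times 1 (MYC) was higher and 2 (SPRED1 and PLAUR) were lower, against 10.9% and 11.4% of all tested genes. The differences ran from -0.24 for ETV4 to 0.11 for KLF6. All intervals except that of ETV4 lay within 1.5-fold, as did those of 89.0% of all tested genes. With erlotinib alone 12 of the 18 were below the untreated array at all 3 times, and 23.3% of all tested genes were, and the median was -0.22. SPRY4, a feedback inhibitor of receptor tyrosine kinase signalling, stood at 5.86, 5.2 and 5.58 with the combination and at 6.30, 5.17 and 5.68 with quinacrine. The difference was -0.17 (95% interval -0.47 to 0.13), against -0.385, -1.23 and -1.015 with erlotinib alone at 6, 12 and 24 h. The difference of these effects was 0.71 (SE 0.52) and did not pass (limma adjusted p = 0.999). CCND1, the cyclin D1 gene, stood at 7.44, 7.27 and 7.73 with the combination and at 7.28, 7.34 and 7.72 with quinacrine, a difference of 0.03, against -0.44 with erlotinib alone. MYC differed by 0.09, against -0.21 with erlotinib alone, and PLAUR, the urokinase receptor gene, by -0.10, against -0.35. DUSP6 and ETV5, further ERK targets, averaged 2.88 and 4.03 and were below the filter.

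NF-kappaB target genes had small differences as well. Of 25 listed genes 12 were tested, none passed, and the median was -0.07. At all 3 times 3 (CXCL8, NFKBIA and TNFAIP2) were higher and 4 (ICAM1, TNFAIP3, NFKB1 and NFKB2) were lower. Over all tested genes these shares were 10.9% and 11.4%. All 12 intervals lay within 1.5-fold, as did those of 89.0% of all tested genes. With erlotinib alone 7 of the 12 were below the untreated array at all 3 times and none above at all 3, against 23.3% and 25.2% of all tested genes. Their median was -0.28 with erlotinib alone, while quinacrine alone and the combination had medians of 0.29 and 0.295 against the same array. TNFAIP3, a feedback inhibitor of NF-kappaB, stood at 7.82, 7.44 and 8.07 with the combination and at 7.87, 7.57 and 8.08 with quinacrine. That mean difference of -0.06 compares with -1.03 for erlotinib alone, and the difference of effects was 0.97 (SE 0.65; limma adjusted p = 0.999). ICAM1, a leukocyte adhesion molecule, stood at 8.80, 8.25 and 8.43 with the combination and at 8.90, 8.35 and 8.60 with quinacrine. Its difference was -0.12 (95% interval -0.35 to 0.10), against -0.68 with erlotinib alone. NFKBIA, which encodes the inhibitor that holds NF-kappaB in the cytoplasm, differed by 0.09, against -0.38 with erlotinib alone. RELA, the p65 subunit, differed by 0.70, -0.22 and 0.27 and thus had no settled sign.

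The difference of effects was itself tested for all genes, since a small difference on top of quinacrine and a larger one without it do not show that the effects differ. No gene passed (0.0% of 5820, smallest limma adjusted p = 0.999), while an unadjusted p under 0.05 was reached by 112 (1.92%), where 291 would be expected by chance. This test rests on 1 untreated array, which was taken to have the spread of the treated ones, and the scatter of each treatment over time counts as its error.

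**Figure D4:**
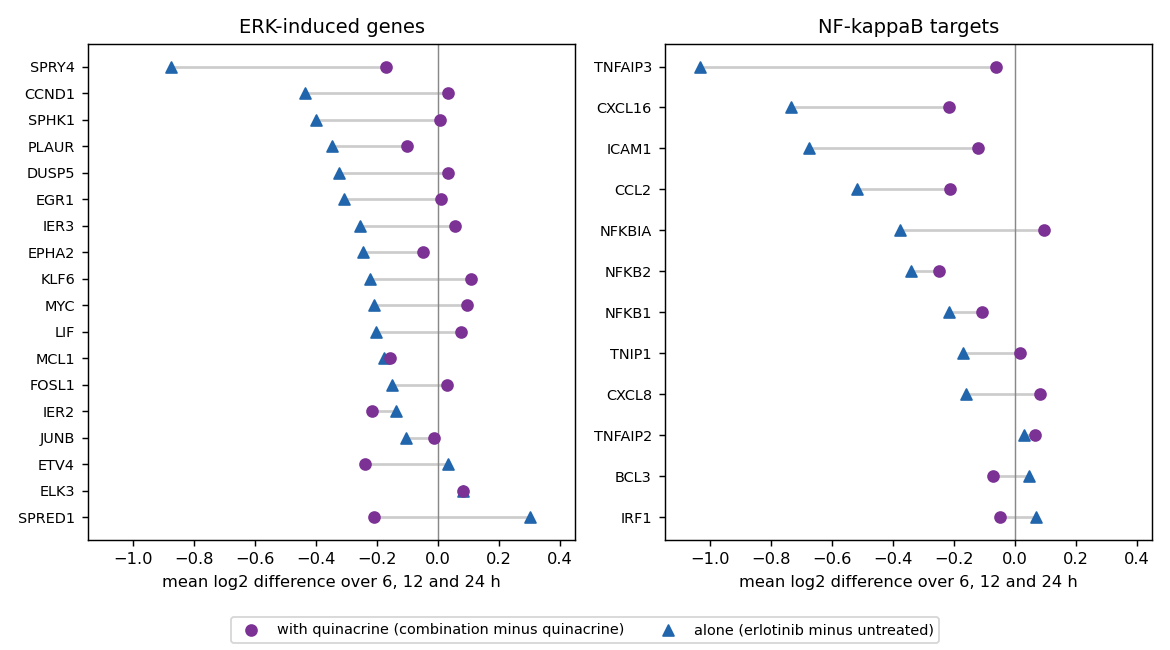
Mean log2 difference over 6, 12 and 24 h of each tested ERK-induced and NF-kappaB target gene, for combination minus quinacrine (circles) and for erlotinib alone minus untreated (triangles), joined by a grey line. Combination minus quinacrine values lie between -0.25 and 0.11, whereas those of erlotinib alone reach -1.03 for TNFAIP3.

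Genes listed earlier as quinacrine-responsive stood close to their quinacrine levels in the combination arrays. The list holds 20 genes, all tested, and it was drawn from earlier comparisons that used these same combination and quinacrine arrays. Its quinacrine effect and the closeness of the 2 groups are therefore descriptions only. Quinacrine minus untreated ran from -1.75 for WNT9A to 2.20 for IL24, with a median absolute value of 1.33. Combination minus quinacrine had a median absolute value of 0.11, none of the 20 passed, and 18 had an interval within 1.5-fold. Over all tested genes the median absolute value was 0.08, and 89.0% had an interval within 1.5-fold. IL24, which encodes an interleukin-10 type cytokine, stood at 6.95, 7.58 and 7.40 with the combination and at 7.34, 7.65 and 7.33 with quinacrine, and its groups overlapped. The chemokine gene CCL2 stood at 8.33, 9.11 and 9.63 with the combination and at 8.93, 9.06 and 9.72 with quinacrine, a mean difference of -0.21. CXCL16, another chemokine gene, stood at 4.96, 5.97 and 6.45 with the combination and at 5.40, 6.28 and 6.35 with quinacrine. It averaged 5.21 over the 12 arrays and would have averaged below the limit of 5 without its quinacrine arrays. INPP5A, an inositol phosphatase gene, stood at 5.96, 5.42 and 5.43 with the combination and at 5.95, 5.43 and 5.52 with quinacrine. H2AX, the histone variant phosphorylated at DNA breaks, stood at 8.19, 7.56 and 7.79 with the combination and at 7.81, 7.70 and 7.78 with quinacrine.

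**Figure D5:**
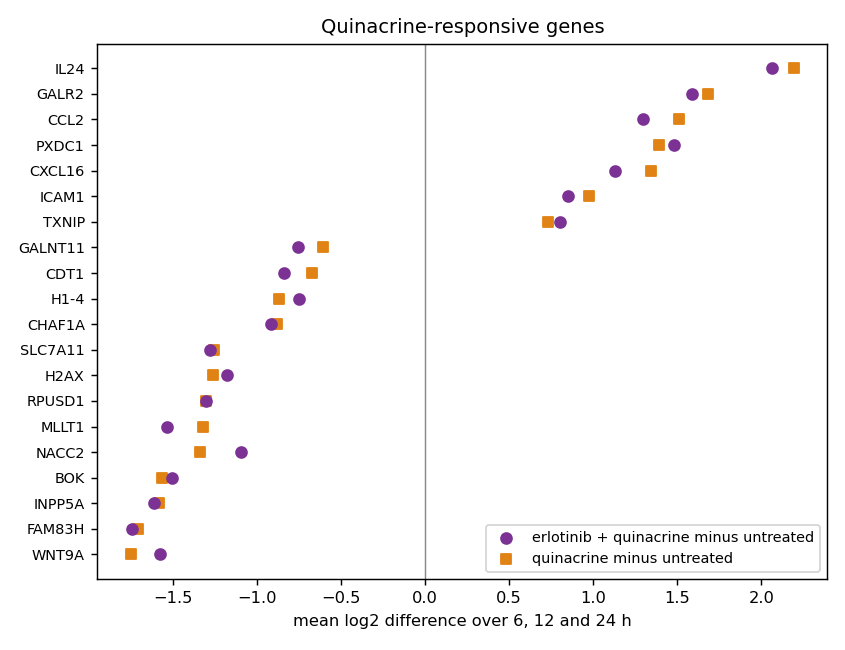
Mean log2 difference from the untreated array over 6, 12 and 24 h of the 20 quinacrine-responsive genes, for the combination (circles) and for quinacrine (squares), which share that array. Quinacrine minus untreated runs from -1.75 to 2.20, and the circle of each gene lies within 0.25 of its square. The genes were picked with these same arrays, so this closeness is a description only.

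The subunits of FACT, which the study's title names, had differences near 0. SUPT16H differed by 0.17, -0.13 and -0.14 (mean -0.03, 95% interval -0.30 to 0.23). SSRP1 differed by 0.00, 0.13 and 0.04 (mean 0.06, 95% interval -0.17 to 0.29). Neither passed, and neither had an effect beyond 0.30 in its interval.

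Genes of G2/M and mitosis had medians of opposite sign at 6 h and later. Of 36 tested genes of G2/M and mitosis none passed. At all 3 times 3 were higher (KIF23, FOXM1 and CDCA8) and 6 lower (CDK1, AURKA, AURKB, KIF20A, DLGAP5 and CKS2). Over all tested genes these shares were 10.9% and 11.4%. The median of the 36 was 0.09 at 6 h, -0.08 at 12 h and -0.04 at 24 h, against 0.05, -0.02 and -0.01 over all tested genes. At both 12 and 24 h, 19 of the 36 were lower with the combination (52.8%, against 27.5% of all tested genes) and 3 were higher (8.33%, against 20.4%), a count added after the values were seen. This was not particular to the list. Over lists with at least 5 tested genes the lower share ran from 0.0% (p53 targets) to 60.0% (NF-kappaB subunits and kinases). It was 57.1% for mesenchymal and 55.6% for epithelial and lung markers. CDK1, the mitotic kinase, stood at 5.70, 5.42 and 5.43 with the combination and at 5.81, 5.67 and 5.47 with quinacrine. Its difference was small, -0.13 (95% interval -0.37 to 0.11). UBE2C, a ubiquitin conjugating enzyme of the anaphase promoting complex, stood at 4.90, 6.06 and 6.22 with the combination and at 6.38, 6.12 and 6.22 with quinacrine, so that its mean of -0.51 came from the 6 h pair alone. Of 37 tested genes of G1/S and DNA replication none passed, 3 were higher and 2 lower at all 3 times, and the median was 0.00. UNG, a uracil DNA glycosylase gene, stood at 7.39, 7.04 and 6.96 with the combination and at 6.90, 6.82 and 6.74 with quinacrine, with no overlap and a difference of 0.31. GINS4, part of the replicative helicase, stood at 5.12, 4.80 and 4.95 with the combination and at 5.26, 5.50 and 5.2 with quinacrine, again with no overlap and a difference of -0.36. GINS4 averaged 5.04 over the 12 arrays and would have averaged below the limit of 5 without its quinacrine arrays, so its values are a description only. CDKN1A, the p21 gene, averaged 3.99 and was below the filter.

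Interferon response genes stood above the untreated array to a like extent in both groups. Of 18 tested none passed, and the median was -0.03. At all 3 times 0 were higher and 4 (IFI44, IFIT3, IFIH1 and XAF1) were lower. Over all tested genes these shares were 10.9% and 11.4%. Against the untreated array the median was 0.86 with the combination and 0.88 with quinacrine, while erlotinib alone had 10 of the 18 above the untreated array at all 3 times, as were 25.2% of all tested genes, and a median of 0.185. IFIH1, a sensor of double-stranded RNA, stood at 4.18, 5.39 and 6.36 with the combination and at 5.00, 5.56 and 6.69 with quinacrine. Each combination array was below its pair, by a mean of -0.44 (95% interval -0.79 to -0.09, limma adjusted p = 0.983). Leaving out the 6 h pair brought this mean to -0.25. IFIH1 averaged 5.17 over the 12 arrays and would have averaged below the limit of 5 without its quinacrine arrays. It was thus tested only through the group where it is high, and its values are a description only.

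Quinacrine gathers in lysosomes, and lysosomal genes were described for that reason. Of 23 tested none passed, and the median was 0.06. At all 3 times 5 (LAMP1, GLA, ATP6V0A1, TPP1 and NEU1) were higher and 1 (CTSL) was lower. Over all tested genes these shares were 10.9% and 11.4%. TPP1, a lysosomal peptidase gene, stood at 6.21, 5.86 and 6.10 with the combination and at 5.57, 5.62 and 5.80 with quinacrine, with no overlap and a difference of 0.39 (95% interval 0.11 to 0.68; limma adjusted p = 0.983). With erlotinib alone TPP1 was below the untreated array at each time, by -0.35 on average. Of 16 tested YAP targets 3 were higher and 2 lower at all 3 times (10.9% and 11.4% of all tested genes), with a median of 0.00. CCN2, the connective tissue growth factor gene, stood at 5.06, 5.19 and 5.18 with the combination and at 5.57, 5.29 and 5.49 with quinacrine, with no overlap. Its difference was -0.31 (95% interval -0.58 to -0.03), against -0.70 with erlotinib alone. The ATF4, fatty acid synthesis and glycolysis lists, with 19, 7 and 15 tested genes, had medians of 0.04, 0.05 and 0.02 and no gene that passed.

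The genes furthest from the untreated array with erlotinib alone were then followed into the combination. They were taken as tested genes on one side of the untreated array at all 3 times with a mean of at least 1.5-fold. The side and size used none of the 6 arrays compared here, but the filter on the mean used all 12. CYP1A1 passed that filter only through its combination arrays. The 48 such genes below the untreated array had a median of -0.695 with erlotinib alone and of -0.07 on top of quinacrine. The cutoff fixed in advance that medians with erlotinib alone were large, here and for the genes above the untreated array. A smaller median on top of quinacrine therefore does not show that quinacrine lessened the effect. On top of quinacrine 32 of the 48 had a mean below 0 (66.7%, against 47.7% of all tested genes; without the 6 h pair 54.17%, against 53.45%), and 12 were lower at all 3 times (25%, against 11.4%), among them ICAM1, TNFAIP3, CCN2 and ANGPTL4. The 37 above it had a median of 0.69 with erlotinib alone and of 0.02 on top of quinacrine. Of these, 20 had a mean above 0 (54.1%, against 51.3% of all tested genes), and 6 were higher at all 3 times (16.2%, against 10.9%), namely CYP1A1, IGLJ7, ZNF415, RMND5A, SLC29A3 and BLTP3A. Without centring the arrays, 35.14% of the 37 had a mean above 0, against 36.22% of all tested genes. At both 12 and 24 h, 18 of the 48 were lower (37.5%, against 27.5% of all tested genes) and 9 of the 37 higher (24.3%, against 20.4%). These shares carry no test, because genes are not independent of each other.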

How the data were processed

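The arrays were Affymetrix Human Gene 2.1 ST, with RNA of NCI-H1975 cells. The deposited values are log2 expression levels made by the authors with RMA in Affymetrix Expression Console 1.30, per the submitters' processing notes, and are given with 2 decimals. The labels describe quantile normalization, yet the sorted values of 2 arrays differed by up to 0.63, so each array was centred on its median over the tested genes and the mean of the 12 medians was added back. Rows were named through the platform annotation: 1 gene symbol belonged to 23871 rows, several to 1842 and none to 27904. RefSeq matched 22569 named rows and renamed 90. The row of highest mean stood for a gene. Arrays carry no read depth, and their number limits the precision.

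Combination and quinacrine arrays were paired by the time in the labels, which carry no replicate numbers. They were compared with limma 3.58.1 in R 4.3.3, with treatment and time as factors on 6 arrays (2 residual degrees of freedom), two-sided, with Benjamini-Hochberg adjustment over 5820 genes. The effect of erlotinib with quinacrine minus its effect alone was a contrast of group means on 10 arrays (6 residual degrees of freedom). The paired fit was also run on simulated data with independent spread and no change over time. With 200 of 5820 genes changed it recovered 82% at 1.5-fold and 100% at 2-fold, with 13 and 20 false calls. The measured arrays had a wide 6 h pair that the simulated data lack, so these figures do not carry over to them. Genes were named if they had one sign at all 3 times and were among the 10 with the largest smallest difference in a direction, if they had one of the 5 smallest p in a direction, or if they had the smallest p in a direction in 1 of 31 gene lists. Members of the EGFR, ERK, aryl hydrocarbon receptor and quinacrine lists, and a few genes the study is about, could be named as well. The members, lists and rules were chosen with earlier results of these data known. Other list members named in the counts, the genes lower or higher in a set of 48 or 37, and the genes at least 2-fold apart at 12 or 24 h were named after their values were seen. Alternatives covered array scaling, the filter, the row per gene, the arrays and terms in the fit, the prior variance, array weights and leaving out each pair.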

Additional observations from a re-analysis of the deposited data

Results flagged for a closer look

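For 14 of the named genes the combination lay on one side of quinacrine at all 3 times and erlotinib alone lay on the opposite side of the untreated array at all 3 times. Of all tested genes, 10.9% were higher and 11.4% lower with the combination at all 3 times. With erlotinib alone 25.2% were higher and 23.3% lower. The share of all tested genes with opposite sides was not counted, so the 14 are a description only. The difference of the 2 effects was tested for each of the 14 in limma over 10 arrays, and none passed (adjusted p = 0.999 for all 14). The values below are the effect of erlotinib with quinacrine minus its effect alone. Of these genes METTL14, ZNF525, CRAMP1 and RNF19B had been picked for one sign at all 3 times, which favours such a pattern.

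Of the genes higher with the combination and lower with erlotinib alone, ZNF525 had a difference of effects of 1.40 and METTL14 of 0.85, both with their largest combination difference at 6 h. TPP1, the lysosomal peptidase gene, had 0.74 (SE 0.24), from 0.39 on top of quinacrine and -0.35 with erlotinib alone. CRAMP1 had 0.65, BCL2L13, a BCL2 family gene, 0.59, and the keratin gene KRT19 0.55. For NFKBIA the value was 0.47, for MYC 0.30 and for SC5D, a gene of cholesterol synthesis, 0.29.

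Of the genes lower with the combination and higher with erlotinib alone, RNF19B had a difference of effects of -1.20 (SE 0.46), from -0.64 on top of quinacrine and 0.56 with erlotinib alone. IFIH1, the double-stranded RNA sensor gene, had -0.94 (SE 0.89) and PFKFB3 -0.84 (SE 0.40). IFIH1 passed the filter only through its quinacrine arrays. The nucleolar methyltransferase gene NOP2 had -0.37 and CDK1 -0.30.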

How the results depend on the processing

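No gene was called for combination minus quinacrine in any of the 18 alternatives (smallest limma adjusted p from 0.207 with array weights to 0.999), nor for the difference of effects in any of its 10 (from 0.0637 with no filter on the mean). Against 189 genes with an unadjusted p under 0.05 in the paired comparison, there were 91 without centring, 63 with centring over all rows, 124 at a mean of at least 6, 769 with no filter, 108 with 11 treated arrays, 61 without the pairing by time and 356 with array weights. Leaving out a pair gave 101 (12 h) to 253 (24 h). Of the 63 genes, 8 were higher and 55 lower, and the median of all genes was then -0.09. Of the difference of effects, 112 genes became 14 with centring over all rows, 546 with no filter and, without 1 pair, 53 (12 h) to 224 (6 h). Without centring, 263 genes were 2-fold apart at 6 h, against 158. Without the 6 h pair, 34 genes were at least 1.2-fold higher and 24 lower at both other times, against 8 and 3 at all times. Of the 37 genes above the untreated array with erlotinib alone, 35.14% had a mean above 0 on top of quinacrine without centring (36.22% of all tested genes), and 45.95% to 54.05% with a pair left out. Of the 48 below it, 54.17% had a mean below 0 without the 6 h pair (53.45% of all), 66.67% without either other pair, and 75% without centring (62.66% of all). The causes were not tested, apart from the number of genes tested, which the filter sets.

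All 23 genes picked for one sign or smallest p, CYP1A1 and CYP1B1 among them, kept their direction in every alternative that gave a value. Each of them had one sign at all 3 times, so leaving out a pair could not turn it. The choice of these genes thus favoured this count, which is a description only. Of 2068 values of the 125 tested named genes, 138 turned direction, 67 moved beyond the SD of the 3 differences, and none passed. Of 527 list medians 130 turned direction and 68 moved, and with at least 5 genes none exceeded 0.17 in size. One array per condition and a lone untreated array limit these comparisons.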

Other observations

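The 5 genes at least 2-fold apart at 12 h did not keep that size at 24 h. The long noncoding RNA gene UCA1 was lower with the combination at each time, by -0.81, -1.0 and -0.10, and was lower with erlotinib alone as well (mean -0.50). USF3 differed by 0.29, 1.28 and 0.12, and ZNF674-AS1, an antisense RNA gene, by 0.20, 1.19 and 0.19. The mitochondrial gene ND6, a subunit of respiratory complex I, was higher at 6 h (1.64) and lower at 12 h (-1.08). PMS2P1, a pseudogene whose probes may also read its near-identical relatives, was lower at 6 h (-1.66) and higher at 12 h (1.11). The small nucleolar RNA gene SNORA38B, at least 2-fold higher at 24 h (1.01), differed by -1.96 at 6 h. These genes were chosen after their values were seen.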
